A study of Mus musculus with 12 samples.

Results

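A set of 10 genes of interleukin-6 and interleukin-1 signalling were followed in mouse liver: Il6ra, Il6st, Osmr, Il1r1, Il1rn, Stat3, Cebpb, Cebpd, Socs3 and Nfkbia. They were chosen by name, with earlier results of these data known, as genes with a probe set that names exactly 1 gene. All 10 were measured among the 30142 genes of the array with such a probe set. Each had 1 such probe set, and all 10 were among the 20020 genes tested. Total RNA came from the livers of 12 mice, male and female and 3 months old, with 1 array per mouse. Their strain was C57BL/6J -Oca2p-un/J. The 4 control mice received water by oral gavage. The 4 cit-AgNP mice received 20 nm silver particles coated with citrate, and the 4 PVP-AgNP mice received 20 nm silver particles coated with polyvinylpyrrolidone, each as 7 daily doses of 4 mg of silver per kg. All livers were taken 24 h after the last dose, and each group held 2 males and 2 females. All 3 groups share the strain and its unstable Oca2 allele, and no mouse without that allele was measured.

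Interleukin-6 binds its receptor IL6RA on hepatocytes, and the shared subunit gp130, encoded by Il6st, passes the signal through Janus kinases to the transcription factor STAT3. Interleukin-1 binds IL1R1 and reaches the transcription factor NF-kappaB through adaptor proteins of the MYD88 and IRAK type. In liver both routes meet at the genes of plasma acute phase proteins, with the C/EBP factors as partners, and both switch on their own inhibitors.

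The 250 bases before the annotated start of each gene were searched on both strands for the STAT dyad TTCNNNGAA and for the NF-kappaB decamer. The RefSeq promoter table of GRCm38.p6 held windows for 9 of the 10 genes, 12 windows in all. The STAT dyad was present in 7.02% and the NF-kappaB decamer in 3.9% of all 32851 windows of the table. The 3 windows of these genes that hold a match are shown, with the match in capitals and the strand of the gene read 5′ to 3′. For Socs3 the match is the STAT dyad, 154 to 146 bases before the start, in chr11:117969367-117969616 on the minus strand. For Nfkbia it is the NF-kappaB decamer, 29 to 20 bases before the start, in chr12:55492648-55492897 on the minus strand. For Il1r1 it is the NF-kappaB decamer in 1 of 2 annotated windows, 232 to 223 bases before the start, in chr1:40266336-40266585 on the plus strand.
Socs3: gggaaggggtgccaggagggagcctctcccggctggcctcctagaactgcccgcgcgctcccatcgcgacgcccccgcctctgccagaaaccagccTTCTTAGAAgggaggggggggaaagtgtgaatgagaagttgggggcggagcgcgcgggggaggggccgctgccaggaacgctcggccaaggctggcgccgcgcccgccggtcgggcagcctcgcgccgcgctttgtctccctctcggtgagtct
Nfkbia: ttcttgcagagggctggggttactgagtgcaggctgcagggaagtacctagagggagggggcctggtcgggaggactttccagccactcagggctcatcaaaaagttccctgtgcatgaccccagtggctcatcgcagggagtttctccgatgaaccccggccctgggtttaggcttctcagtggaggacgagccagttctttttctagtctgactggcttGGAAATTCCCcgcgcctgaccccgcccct
Il1r1: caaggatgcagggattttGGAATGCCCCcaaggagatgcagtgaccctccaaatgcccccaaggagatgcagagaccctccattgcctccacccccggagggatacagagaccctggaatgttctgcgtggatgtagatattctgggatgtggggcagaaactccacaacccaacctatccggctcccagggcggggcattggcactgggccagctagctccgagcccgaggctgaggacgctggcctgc
These matches describe the letters of each window and were not tested for binding.

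The array medians lay between 4.13 and 4.4 on the log2 scale. The area under the curve that separates exon from intron control probe sets was lowest on PVP replicates 1 and 4, at 0.778 and 0.794, against 0.804 to 0.842 on the other 10 arrays. Of 10 hepatocyte markers 7 were measured, and their mean log2 signal lay between 18.67 and 18.81 in the 12 livers, near the ceiling of 19.93. No signalling gene reached that ceiling. As a measure of level against background, Il6ra, Il6st, Stat3, Il1r1, Cebpb and Nfkbia lay above 92.3% to 99% of the intron control probe sets, as medians over the 12 arrays. Il1rn, Osmr and Cebpd lay above 70.2%, 74.1% and 77.9% of them. Socs3 lay above 28.4% of them, so that its signal was within the range of these background probe sets on every array, and small differences in it are differences near background.

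Against control, the fitted log2 differences of the 10 genes with citrate-coated silver had a median of 0.35, against 0.00 for all genes tested, and all 10 were above 0, as were 50.1% of all genes. With PVP-coated silver the median was 0.26, again against 0.00, and 9 were above 0, against 49.3% of all genes. The citrate differences of Il6st and Socs3 were only 0.01 each. Both counts above 0 moved with the settings. Citrate gave 8 once arrays were median-centred, and 7 when citrate replicate 4 was dropped. PVP gave 7 once arrays were median-centred, and 10 when control replicate 3 was dropped. None of the 10 passed an adjusted p of 0.05 in limma in either comparison, where 0.00500% of all genes tested passed with citrate and 0.0400% with PVP. At an unadjusted p under 0.05, 4 of the 10 were higher with citrate (Il6ra, Il1r1, Cebpb and Cebpd) and 0 lower, against 6.56% of all genes in either direction and 2.74% higher. With PVP, 3 were higher (Stat3, Il1r1 and Cebpb) and 0 lower, against 20.3% of all genes in either direction and 8.08% higher. The comparisons share the 4 control mice, so their values are given side by side and not as independent. Because the 10 genes were chosen with earlier results of these data known, these counts are no independent evidence of a response or its direction.

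**Figure D1:**
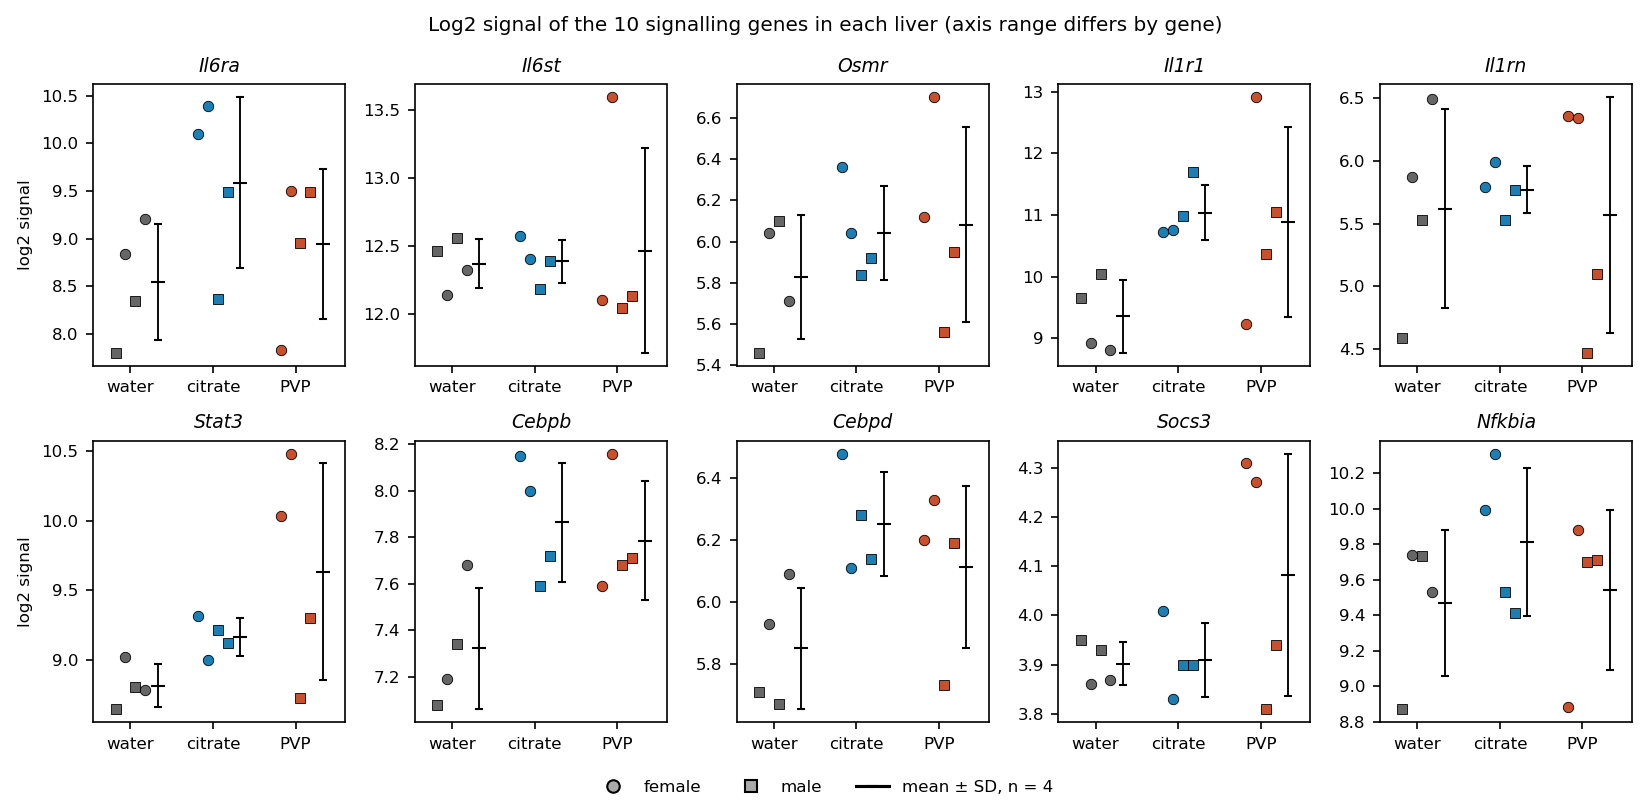
Log2 signal (vertical axes, range set per gene) of the 10 genes in each liver by group; circles are females, squares are males, and the bar beside each group is the mean ± SD of 4 livers. Il1r1 lies between 10.73 and 11.69 in the 4 citrate livers and between 8.81 and 10.05 in the 4 control livers, and PVP replicate 2 is the highest point of the Il6st panel at 13.59.

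Il1r1, the signalling receptor of interleukin-1, had the largest fitted difference from control with either coating. Its log2 signal was 9.65, 8.92, 10.05 and 8.81 in control replicates 1 to 4. It was 10.73, 10.75, 10.99 and 11.69 in citrate replicates 1 to 4, and 9.23, 12.91, 10.36 and 11.05 in PVP replicates 1 to 4. Each citrate-treated liver lay above each control liver, while PVP replicate 1 lay within the control range and PVP replicate 2 was the highest of the 12. The citrate difference was 1.68 (SE 0.64, limma adjusted p = 0.627), a fold of 3.21 with a 95% interval of 0.27 to 3.10 on the log2 scale. This SE pools the 3 groups, whose SDs were 0.60 in control, 0.45 with citrate and 1.54 with PVP. With only the control and citrate livers in the limma fit, the SE was 0.18 and the adjusted p 0.222. Without PVP replicate 2 they were 0.23 and 0.111. Separation of all treated from all control livers in this direction was seen for 2 of the 10 genes, Il1r1 and Cebpd, and for 1.93% of all genes tested. With PVP 0 of the 10 were so separated, against 2.99% of all genes. The PVP difference was 1.53 (SE 0.64, adjusted p = 0.219), and without PVP replicate 2 it was 0.69. Without PVP replicates 1 and 4, where exon and intron controls were least separated, it was 2.27. In whole liver, more cells of a type and more RNA per cell cannot be told apart.

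Il1rn encodes the interleukin-1 receptor antagonist, a secreted protein that occupies IL1R1 without signalling. It had log2 signals of 4.59, 5.87, 5.53 and 6.49 in control livers, 5.79, 5.99, 5.53 and 5.77 with citrate, and 6.36, 6.34, 4.47 and 5.10 with PVP. The groups overlapped, and the spread among control livers was 0.79 (SD, n = 4) around a mean of 5.62. The differences from control were 0.15 with citrate and -0.05 with PVP (SE 0.30 each, limma adjusted p = 1 and 0.94). The PVP-treated females, replicates 1 and 2, stood above the PVP-treated males, and the control females above the control males.

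Il6ra, the ligand-binding receptor of interleukin-6, had log2 signals of 7.80, 8.84, 8.34 and 9.20 in control replicates 1 to 4. With citrate it had 10.10, 10.39, 8.37 and 9.49, and with PVP 7.83, 9.5, 8.95 and 9.49. In citrate-treated livers 3 of 4 lay above the highest control, and replicate 3 lay inside the control range. The citrate difference was 1.04 (SE 0.47, limma adjusted p = 0.754), a fold of 2.06. The PVP difference was 0.40 (SE 0.47, adjusted p = 0.636). Without PVP replicate 1, the treated liver of lowest Il6ra, it was 0.92, and without PVP replicate 4 it was 0.09. It was 0.23 without control replicate 1, 0.88 with array weights and 0.93 with the exon over intron area in the fit.

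Il6st, which encodes gp130, had log2 signals of 12.46, 12.14, 12.56 and 12.32 in control livers. With citrate it had 12.57, 12.40, 12.18 and 12.39, and with PVP 12.10, 13.59, 12.04 and 12.13. The control and citrate livers covered the same range, and in the PVP group replicate 2 alone stood above it while the other 3 lay below the lowest control. The differences from control were 0.01 with citrate and 0.10 with PVP (SE 0.30 each, limma adjusted p = 1 and 0.877). Without PVP replicate 2 the PVP difference was -0.28.

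Osmr, the receptor subunit that pairs with gp130 for oncostatin M, had log2 signals of 5.46 to 6.10 in control livers, 5.84 to 6.36 with citrate and 5.56 to 6.70 with PVP. The ranges overlapped, with PVP replicate 2 highest and control replicate 1 lowest. The differences from control were 0.21 with citrate and 0.25 with PVP (SE 0.19 each, limma adjusted p = 0.978 and 0.451). Without control replicate 3 they were 0.38 and 0.42, and without control replicate 4 they were 0.10 and 0.14. The PVP difference was 0.09 without PVP replicate 2, 0.38 without PVP replicate 3 and 0.16 with arrays centred on their median.

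Stat3, the transcription factor activated below gp130 and itself a STAT3 target, had log2 signals of 8.65, 9.02, 8.81 and 8.79 in control livers. It had 9.32, 9.0, 9.22 and 9.12 with citrate, and 10.03, 10.48, 8.73 and 9.30 with PVP. The PVP-treated females, replicates 1 and 2, were the highest of the 12 livers, and PVP replicate 3, a male, lay within the control range. The PVP difference was 0.82 (SE 0.26, limma adjusted p = 0.159), a fold of 1.76 with a 95% interval of 0.24 to 1.39 on the log2 scale. The SDs were 0.15 in control, 0.14 with citrate and 0.77 with PVP, so the pooled SE understates the spread of the PVP livers. The citrate difference was 0.35 (SE 0.26, adjusted p = 0.946), with 3 of 4 citrate-treated livers above the highest control.

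Cebpb, the C/EBP-beta factor that was first known as a nuclear factor for interleukin-6, had log2 signals of 7.08, 7.19, 7.34 and 7.68 in control livers. It had 8.15, 8.0, 7.59 and 7.72 with citrate, and 7.59, 8.16, 7.68 and 7.71 with PVP. In each treated group, every liver lay above the lowest 3 controls, and control replicate 4 lay among the treated livers. The differences from control were 0.54 with citrate and 0.46 with PVP (SE 0.15 each, limma adjusted p = 0.411 and 0.162), folds of 1.46 and 1.38. The PVP difference was 0.70 with the exon over intron area in the fit.

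Cebpd, which encodes the related factor C/EBP-delta, had log2 signals of 5.71, 5.93, 5.67 and 6.09 in control livers. It had 6.48, 6.11, 6.28 and 6.14 with citrate, and 6.20, 6.33, 5.73 and 6.19 with PVP. The 4 citrate-treated livers lay above the 4 controls, the lowest at 6.11 against 6.09 in control replicate 4, and with PVP 3 of 4 did. The differences were 0.40 with citrate and 0.26 with PVP (SE 0.12 each, limma adjusted p = 0.477 and 0.246), and the PVP difference was 0.16 with arrays centred on their median.

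Socs3, the inhibitor that binds gp130 and Janus kinases and is a direct STAT3 target, had log2 signals of 3.86 to 3.95 in control livers and 3.83 to 4.01 with citrate. With PVP it had 4.31, 4.27, 3.81 and 3.94. The PVP-treated females, the livers of highest Stat3, were the only ones above 4.01, and all 12 values were within the range of the intron control probe sets, whose array medians were 4.63 to 4.88. The PVP difference was 0.18 (SE 0.10, limma adjusted p = 0.332), or 0.08 to 0.11 with arrays centred on their median, quantile normalization or array weights, and the citrate difference 0.01 (SE 0.10, adjusted p = 1).

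Nfkbia, which encodes the NF-kappaB inhibitor IkappaB-alpha and is an NF-kappaB target, had log2 signals of 8.87, 9.74, 9.73 and 9.53 in control livers. It had 9.99, 10.31, 9.53 and 9.41 with citrate, and 8.88, 9.88, 9.70 and 9.71 with PVP. The citrate-treated females were the highest 2 livers, and control replicate 1 and PVP replicate 1 were the lowest. The differences were 0.34 with citrate and 0.08 with PVP (SE 0.28 each, limma adjusted p = 0.96 and 0.897). The citrate difference was 0.16 without control replicate 1 and 0.20 without citrate replicate 2, and the PVP difference was 0.37 without PVP replicate 1.

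**Figure D2:**
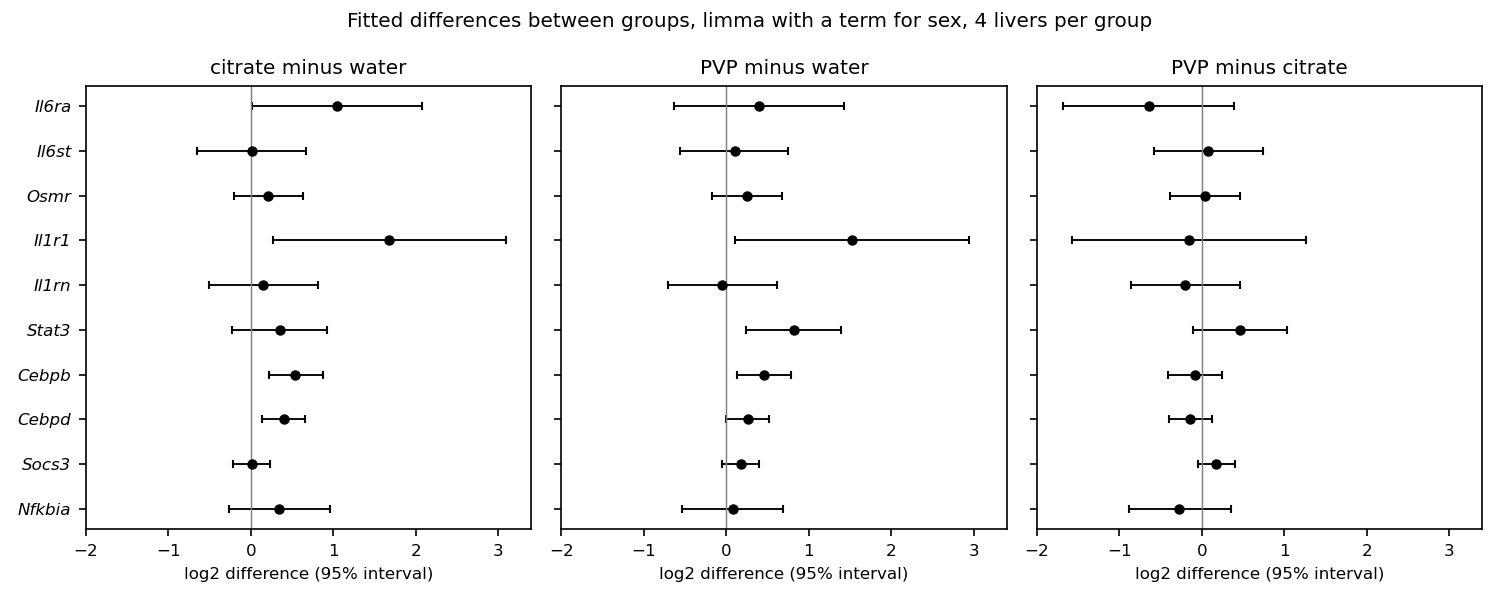
Fitted log2 differences (horizontal axes) with 95% intervals for the 10 genes, for citrate minus water, PVP minus water and PVP minus citrate, from 1 limma fit to 12 livers with a term for sex. The widest intervals belong to Il1r1, 0.27 to 3.10 with citrate and 0.11 to 2.94 with PVP, and every interval of PVP minus citrate includes 0.

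The coatings were also compared directly. None of the 10 genes passed in limma for PVP minus citrate, where 0.00% of all genes tested passed, and 0 of the 10 against 14.0% of all genes had an unadjusted p under 0.05. The fitted differences ran from -0.64 for Il6ra (SE 0.47, adjusted p = 0.54) to 0.47 for Stat3 (SE 0.26, adjusted p = 0.428), with a median of -0.11. Without PVP replicate 1 the Il6ra value was -0.12, and without citrate replicate 3 it was -0.99. The Stat3 value was 0.24 without PVP replicate 2 and 0.72 without PVP replicate 3. For Il1r1 the difference was -0.16 with a 95% interval of -1.57 to 1.26, so that a large difference either way was not excluded by these 8 livers. For Cebpb the interval was -0.41 to 0.24 and for Cebpd -0.40 to 0.12.

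Single livers differed in which genes were high. Deviations from the mean of the control livers of the same sex had medians over the 10 genes of 0.44, 0.16, 0.34 and 0.42 in citrate replicates 1 to 4, and of 0.18, 0.60, 0.02 and 0.45 in PVP replicates 1 to 4. PVP replicate 2, a female, deviated upward in all 10 genes, had the highest signal of its group in 8 and the highest of the 12 livers in 5. PVP replicate 1, also a female, combined Stat3 and Socs3 deviations of 1.12 and 0.44 with Il6ra and Nfkbia deviations of -1.19 and -0.76. PVP replicate 3, a male, had the lowest signal of its group in 6 genes. Control replicate 1, a male, had the lowest signal of all 12 livers in 5 genes. Each control is part of the mean of 2 livers it was set against, which narrows the deviations of the controls.

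**Figure D3:**
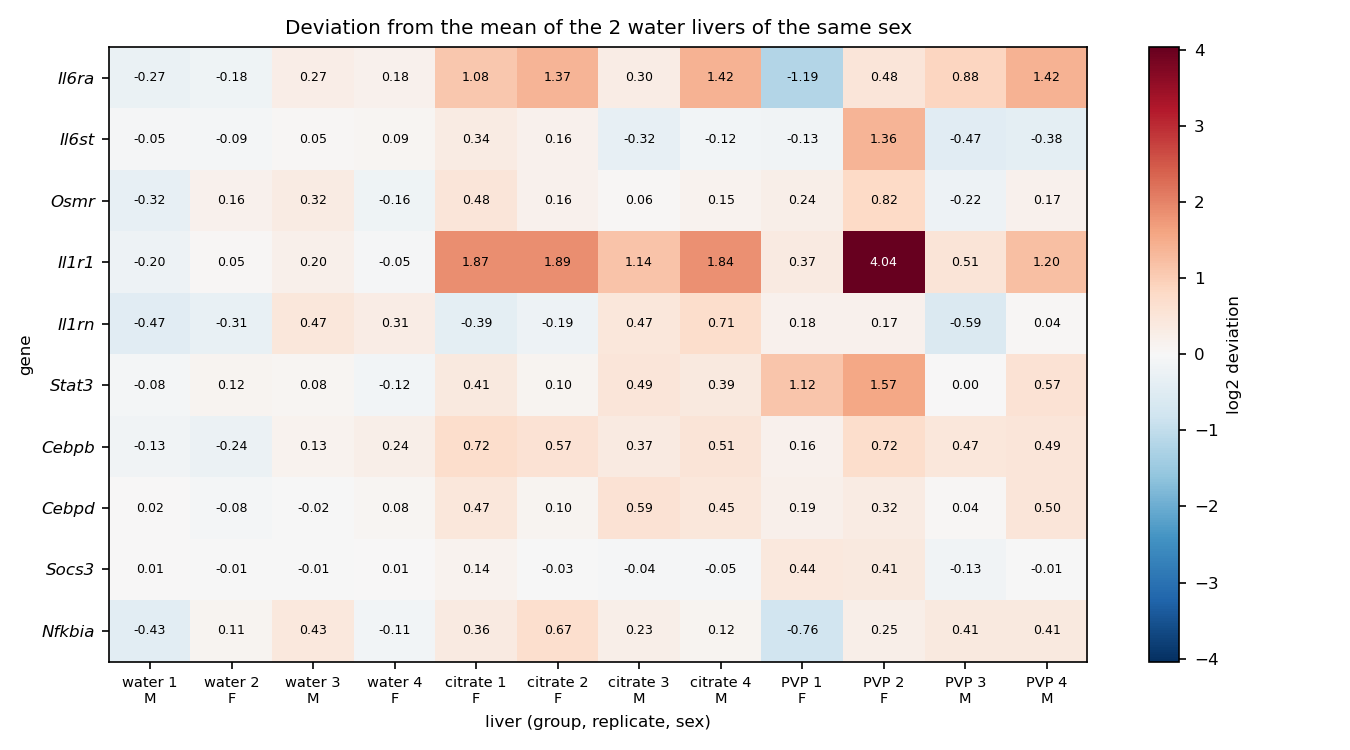
Log2 deviation (colour and printed value) of each of the 10 genes (rows) in each of the 12 livers (columns, with F for female and M for male) from the mean of the 2 water livers of the same sex. PVP replicate 2 is above 0 in all 10 rows, with 4.04 for Il1r1, and PVP replicate 1 has -1.19 for Il6ra beside 1.12 for Stat3.

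Markers of other liver cells also differed between these livers. The mean log2 signal of 11 Kupffer cell and macrophage markers was 7.64 to 8.75 in control livers, 7.84 to 9.08 with citrate and 7.79 to 9.84 with PVP. That of 10 neutrophil markers was 4.26 to 5.42 in controls, 5.12 to 5.49 with citrate and 5.22 to 6.32 with PVP. PVP replicate 2 was highest in both lists, and control replicate 1 was lowest in the neutrophil list. In PVP replicate 2, 6 of the 10 neutrophil genes, S100a8, S100a9, Ly6g, Ngp, Retnlg and Cxcr2, had their highest signal of the 12 livers, and the other 4, Camp, Mpo, Elane and Ltf, lay within the control range. Of the tested markers, 11 of 11 Kupffer and 7 of 7 neutrophil genes had differences above 0 with each coating, and 0 passed in limma at an adjusted p of 0.05; at an unadjusted p under 0.05 there were 0 in either list with citrate, and 1 and 3 with PVP. Stellate cell markers lay the other way, with 0 of 7 above 0 with each coating and 1 lower with citrate and 3 with PVP at an unadjusted p under 0.05. Of 7 endothelial markers, 4 were above 0 with citrate and 1 with PVP, with 0 and 1 lower at that p. Of all genes tested, 50.1% were above 0 with citrate and 49.3% with PVP. At that p, 2.74% of all genes were higher and 3.82% lower with citrate, and 8.08% and 12.2% with PVP. The PVP counts of 1 of 11 Kupffer genes higher and 1 of 7 endothelial genes lower are close to these shares. Endothelial markers were at 8.22 to 8.59 in controls, 8.38 to 8.67 with citrate and 7.93 to 8.54 with PVP, and stellate cell markers at 7.27 to 7.70, 7.06 to 7.45 and 6.71 to 7.23. The remaining lists held 6 monocyte, 6 T and NK cell, 4 B cell and 4 bile duct markers measured, with group means of 4.1 to 4.89. The part of these cells in the values of the signalling genes was not tested.

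Sex was a term of the fit. None of the 10 genes passed for female minus male in limma, where 2.17% of all genes tested did. At an unadjusted p under 0.05, 5 of the 10 were higher in females (Stat3, Il1rn, Osmr, Cebpb and Cebpd) against 6.35% of all genes, and the count was 1 to 6 with 1 liver left out, being 1 without control replicate 1, citrate replicate 1 or 4 or PVP replicate 3. Il1rn had the largest sex difference, 0.97 (SE 0.24, adjusted p = 0.0757), from means of 5.06, 5.65 and 4.79 in control, citrate and PVP males and 6.18, 5.89 and 6.35 in the females of the same groups (n = 2 each). Females were higher in all 3 groups.

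Whether the response differed by sex was tested on 6 means of 2 livers each. For citrate 0 of the 10 genes passed in limma, as did 0.00% of all genes tested, and 0 had an unadjusted p under 0.05, against 2.44% of all genes. For PVP 0 passed, again beside 0.00% of all genes, and 2 of the 10, Stat3 and Socs3, had an unadjusted p under 0.05, against 3.62% of all genes. The PVP difference in Stat3 was 1.35 in females and 0.29 in males, and the difference between them was 1.06 (SE 0.34, adjusted p = 1). In Socs3 the PVP difference was 0.43 in females and -0.07 in males, a difference of 0.50 (SE 0.13, adjusted p = 1). Il6ra ran the other way, with -0.36 in PVP females and 1.15 in PVP males (difference -1.51, SE 0.78, adjusted p = 1). The Socs3 signals were near background. PVP replicate 1, 1 of the 2 PVP females, had the highest array median, 4.40, and the lowest exon over intron area, 0.778.

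Other genes of the pathway were counted from lists of 99 genes, of which 90 were measured and 83 tested. These lists too were chosen with earlier results of these data known. None of the 83 passed an adjusted p of 0.05 in limma against control with either coating or between the coatings. At an unadjusted p under 0.05, 9 were higher and 4 lower with citrate, and 16 higher and 7 lower with PVP. The shares of all genes to read these and the following list counts against were 2.74% higher and 3.82% lower with citrate, and 8.08% higher and 12.2% lower with PVP.

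Among the ligands, Il6 had log2 signals of 3.51 to 4.01, the oncostatin gene Osm 3.24 to 3.75 and the tumour necrosis factor gene Tnf 3.31 to 4.09 across the 12 livers. These 3 were below the level required for testing, and lay above 24.4%, 18.8% and 22.7% of the intron control probe sets, as medians over the 12 arrays. Interleukin-1 genes had higher signals, with Il1a at 7.24 to 9.35 and Il1b at 6.18 to 9.20. They lay above 96.5% and 92.1% of the intron control probe sets, as medians over the 12 arrays. The 95th percentile of these probe sets was 7.72 to 8.53 by array, so both genes still overlapped their upper range. Il1b had differences from control of -0.68 with citrate (SE 0.57, limma adjusted p = 0.965) and -0.14 with PVP (SE 0.57, adjusted p = 0.91), and Il1a of 0.14 and -0.02 (SE 0.34, adjusted p = 1 and 0.984). Control replicate 1 was the lowest of the 12 livers in both. In all, 6 of 12 ligand genes were tested and 0 had an unadjusted p under 0.05 with either coating. The remaining ligands of smallest p were Clcf1, a cytokine of the gp130 family, at -0.08 with citrate and 0.07 with PVP, and Il18, at 0.08 with PVP.

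Among 9 tested receptors outside the 10 genes, 3 were higher at an unadjusted p under 0.05 with citrate and 0 with PVP, where 2.74% and 8.08% of all genes were higher. Lifr, which pairs with gp130 for leukaemia inhibitory factor, had group means of 14.49 in control, 15.22 with citrate and 14.17 with PVP. Its differences were 0.73 for citrate minus control (SE 0.28, limma adjusted p = 0.629) and -1.05 for PVP minus citrate (SE 0.28, adjusted p = 0.248). The decoy receptor gene Il1r2 had 0.51 with citrate (SE 0.15, adjusted p = 0.511) and 0.21 with PVP, at signals of 3.76 to 4.75 that lie in the background range. Il18rap, an interleukin-18 receptor subunit, had 0.17 with PVP (SE 0.08, adjusted p = 0.279). Il1rap, the co-receptor that IL1R1 needs to signal, had -0.09 with citrate and -0.05 with PVP (SE 0.13, adjusted p = 1 and 0.84). By sex, Il1rap was lower in females by a log2 difference of -0.54 (SE 0.11, adjusted p = 0.0311), and Sigirr, an inhibitory receptor of the same family, was higher by 0.39 (SE 0.07, adjusted p = 0.0183).

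Among 18 tested kinases and adaptors, 0 were higher at an unadjusted p under 0.05 and 2 were lower with citrate and 3 with PVP, where 3.82% and 12.2% of all genes were lower; 3 of 18 is close to that PVP share. Irak2, a kinase-like adaptor of the interleukin-1 receptor complex, had the smallest p of the list in both. Its log2 signal was 6.42, 6.68, 6.43 and 6.54 in control livers, 5.81, 5.74, 5.96 and 5.92 with citrate and 5.99, 6.04, 6.16 and 5.78 with PVP. Each of the 8 treated livers lay below each control, a separation downward that 2.37% of all genes showed with citrate and 4.91% with PVP. The differences were -0.66 with citrate (SE 0.10, limma adjusted p = 0.0948) and -0.53 with PVP (SE 0.10, adjusted p = 0.0678). Gab1, a docking protein below gp130, had -0.33 and -0.42 (SE 0.11 each, adjusted p = 0.521 and 0.118). Between the coatings the smallest p belonged to Traf6, the ubiquitin ligase below the IRAK proteins, at -0.21 (SE 0.10, adjusted p = 0.37), and Tab3, at -0.21 (SE 0.11, adjusted p = 0.407). The Janus kinase genes Jak1 and Jak2 had differences of 0.16 and -0.08 with citrate and -0.06 and -0.18 with PVP, and the adaptor gene Myd88 had -0.17 and -0.24 (adjusted p of 0.294 to 1 for the 3 genes).

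Among 9 tested transcription factors, 2 were lower with citrate and 3 with PVP at an unadjusted p under 0.05, and 0 were higher, beside 3.82% and 12.2% of all genes lower. Rela, which encodes the p65 subunit of NF-kappaB, had -0.70 with PVP (SE 0.22, limma adjusted p = 0.159) and -0.07 with citrate (SE 0.22, adjusted p = 1). Its PVP minus citrate difference was -0.63 (SE 0.22, adjusted p = 0.309), and the PVP-treated livers lay below all others. With PVP, 4.91% of all genes lay wholly below control. Rela was lowest in PVP replicates 1 and 4, at 8.94 and 9.17. Those arrays told exon from intron controls least well, with areas of 0.778 and 0.794. PVP replicates 2 and 3 were at 9.76 and 9.74, close to control replicate 2 at 9.80. The part of array quality in these Rela values was not tested. Stat5a and Cebpa had -0.26 and -0.63 with citrate (adjusted p = 0.633 and 0.716), Stat5b had -0.34 with PVP (adjusted p = 0.221), and Jun had 0.94 for PVP minus citrate (SE 0.52, adjusted p = 0.426).

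Among 12 tested inhibitors, 2 were higher and 0 lower with citrate, and 1 was higher and 1 lower with PVP, at an unadjusted p under 0.05; the PVP counts are close to the shares of all genes, 8.08% higher and 12.2% lower. Nfkbiz, an atypical IkappaB that is induced by interleukin-1, had 0.52 with citrate (SE 0.18, limma adjusted p = 0.582) and 0.60 with PVP (SE 0.18, adjusted p = 0.153). Socs2 had 0.45 with citrate (SE 0.19, adjusted p = 0.733) and -0.37 for PVP minus citrate (SE 0.19, adjusted p = 0.407), and Nfkbib had -0.34 with PVP (SE 0.13, adjusted p = 0.205). Tnfaip3, which encodes the ubiquitin editor A20, had 0.16 and 0.06 (SE 0.09 each, adjusted p = 0.865 and 0.693). The phosphatase gene Ptpn6 had -0.21 for PVP minus citrate (SE 0.11, adjusted p = 0.41). Socs1 was below the level required for testing, at 3.30 to 3.65.

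Liver targets of the pathway covered a wider range than the signalling genes themselves. Of 29 tested, 4 were higher and 0 lower with citrate, with a median difference of 0.41, and 15 were higher and 0 lower with PVP, with a median of 0.95, at an unadjusted p under 0.05, where 2.74% and 8.08% of all genes were higher. The 4 with citrate were Fgl1, Pim3 and the metallothionein genes Mt1 and Mt2, which encode metal-binding proteins. Mt1 had 3 with citrate (SE 1.17, limma adjusted p = 0.648) and 2.49 with PVP (SE 1.17, adjusted p = 0.262). Mt2 had 3.95 with citrate (SE 1.42, adjusted p = 0.591) and 3.49 with PVP (SE 1.42, adjusted p = 0.211). Its control signals were 7.56 and 11.20 in males and 17.86 and 17.90 in females. Treated males were at 13.13 to 17.89 and treated females at 18.66 to 18.78, so these differences lay mostly in males. Mt1 was likewise low in control males, at 8.86 and 12.60, against 16.98 and 16.88 in control females. The part of the pathway in these values was not tested. Fga, Fgb, Fgg and Hamp were at the ceiling on all 12 arrays, so that no difference in them could be seen. The list was chosen with earlier results on acute phase genes in these livers known, so it is no independent evidence of direction. Saa2, a serum amyloid A gene, had log2 signals of 7.38 to 10.13 in control livers, 14.09, 8.63, 9.33 and 10.53 with citrate and 19.34, 19.28, 11.80 and 13.31 with PVP. Its PVP difference was 6.80 (SE 1.34, limma adjusted p = 0.0759). The PVP-treated females were highest, the same livers as for Stat3 and Socs3, and lay close to the ceiling of 19.93, where differences can be understated. Saa1 had 5.83 with PVP (SE 1.23, adjusted p = 0.0878). For PVP minus citrate these were the targets of smallest p, Saa2 at 5.29 (SE 1.34, adjusted p = 0.248) and Saa1 at 4.27 (SE 1.23, adjusted p = 0.258).

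The iron-binding lipocalin gene Lcn2 had log2 signals of 4.44 to 6.54 in control livers, 9.14, 6.49, 4.96 and 5.35 with citrate and 11.13, 13.60, 5.99 and 5.67 with PVP. Lrg1, a plasma glycoprotein gene induced by interleukin-6, had 8.85 to 10.25, then 11.38, 9.85, 10.05 and 10.63, then 13.57, 15.32, 10.47 and 10.97. Steap4, a metalloreductase gene, had 13.15 to 13.70, then 14.57, 13.89, 13.82 and 13.78, then 14.49, 16.18, 13.40 and 13.39. In all 3 genes citrate replicate 1, a female, was the highest of its group and PVP replicate 2 the highest of the 12 livers. Their PVP differences were 3.94 for Lcn2 (SE 1.07, limma adjusted p = 0.128), 2.86 for Lrg1 (SE 0.83, adjusted p = 0.144) and 0.95 for Steap4 (SE 0.46, adjusted p = 0.276). Fgl1, a hepatokine gene, had the smallest p of the list with either coating, at 1.36 with citrate (SE 0.40, adjusted p = 0.495) and 2.46 with PVP (SE 0.40, adjusted p = 0.0579). Pim3, a kinase gene of the STAT3 target set, had 0.68 with citrate (SE 0.22, adjusted p = 0.514). By sex, 3 of the targets were higher in females at an adjusted p under 0.05, the acute phase glycoprotein genes Orm2 by 3.68 (SE 0.72, adjusted p = 0.0275), Orm3 by 3.27 (SE 0.54, adjusted p = 0.013) and Fgl1 by 1.80 (SE 0.33, adjusted p = 0.0205).

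**Figure D4:**
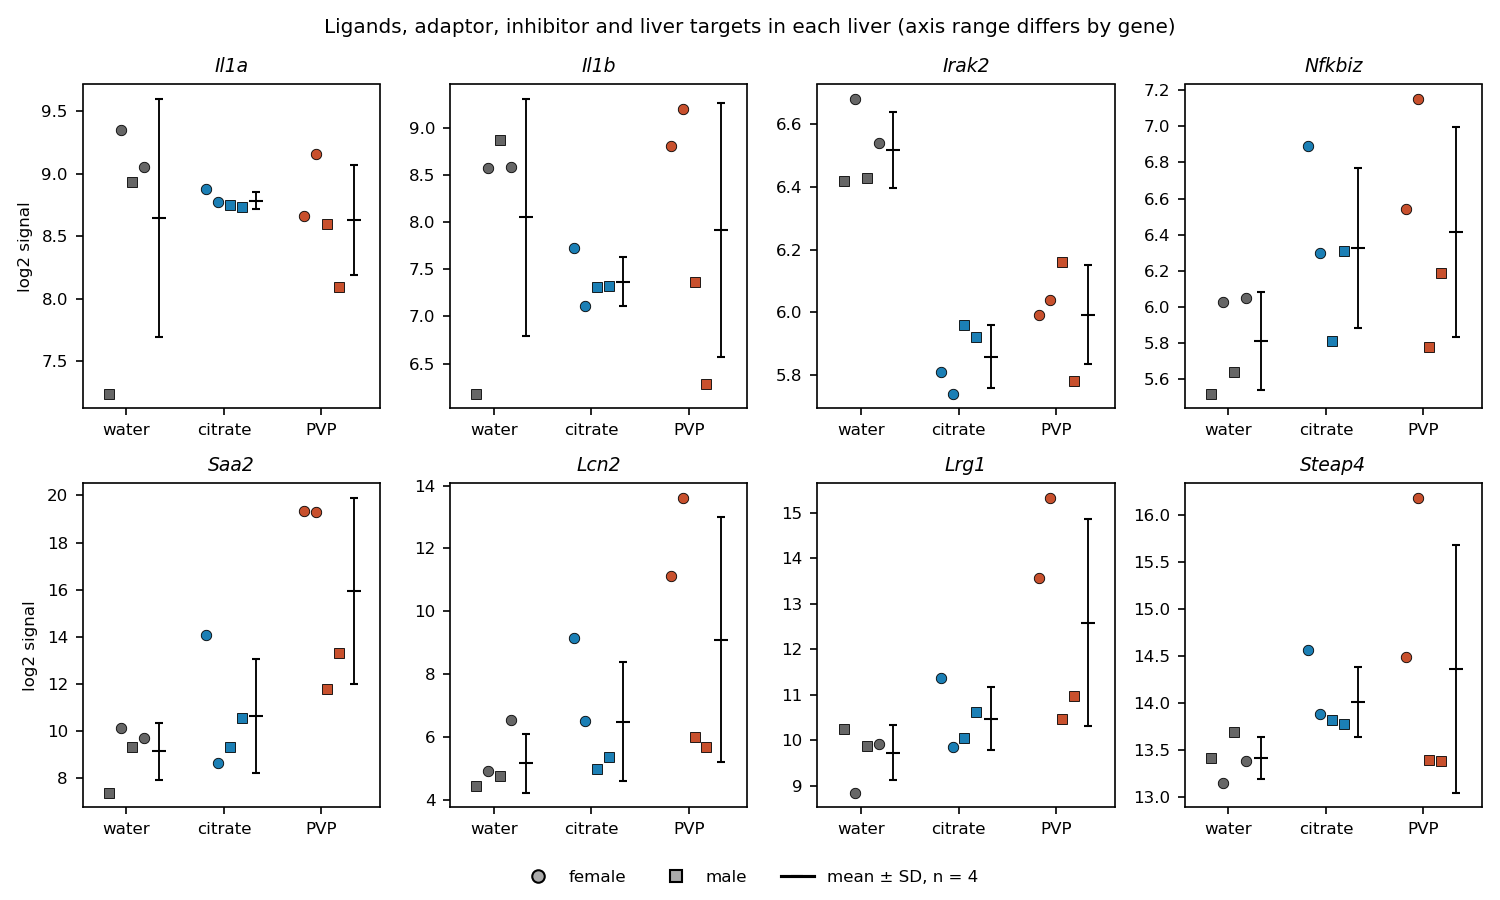
Log2 signal (vertical axes, range set per gene) of the ligand genes Il1a and Il1b, the adaptor Irak2, the inhibitor Nfkbiz and the liver targets Saa2, Lcn2, Lrg1 and Steap4 in each liver by group; circles are females, squares are males, bars are the mean ± SD of 4 livers. Irak2 lies between 5.74 and 6.16 in the 8 treated livers and between 6.42 and 6.68 in controls, and the PVP females are the highest points for Saa2, Lcn2 and Lrg1.

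Sex was also counted over the other pathway genes. Of the 83 tested, 4 were higher and 1 lower in females at an adjusted p under 0.05 in limma, and 28 and 4 at an unadjusted p under 0.05. Of all genes, 2.17% passed the adjusted threshold, and 6.35% were higher and 8.93% lower at the unadjusted one. Below the adjusted threshold, the ligand genes of smallest p were Il33, an alarmin of the interleukin-1 family, at 0.72 (SE 0.17, adjusted p = 0.0643), and Il1b, at 1.11 (SE 0.47, adjusted p = 0.288). The kinase complex gene Ikbkg had -0.54 (SE 0.12, adjusted p = 0.059) and the phosphatase gene Ptpn11 -0.26 (SE 0.11, adjusted p = 0.301). The transcription factor genes Rel and Jun had 0.76 and 1.40 (SE 0.22 and 0.42, adjusted p = 0.128 and 0.133), and the inhibitor genes Nfkbiz and Ptpn6 had 0.62 and 0.32 (SE 0.15 and 0.09, adjusted p = 0.0691 and 0.108).

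None of the 83 passed for a sex difference in response to either coating in limma. At an unadjusted p under 0.05, 1 was higher and 2 lower for citrate, and 13 were higher and 4 lower for PVP. Over all genes the shares in either direction were 2.44% for citrate, close to that of these 83, and 3.62% for PVP. For PVP the liver targets of smallest p were Serpina3n, a protease inhibitor gene, where the response in females exceeded that in males by 2.95 (SE 0.49, adjusted p = 0.996), and the kinase gene Pim1, with 1.44 (SE 0.26, adjusted p = 0.996). In Pim1 the males were lower with PVP, at 6.23 and 6.30 against 7.47 and 7.05 in control. Its females were at 6.72 and 6.50 against 6.32 and 6.01, and its PVP difference over both sexes was -0.28 (SE 0.25). The ligand genes were Il33, with 0.89 (SE 0.18, adjusted p = 0.996), and Il18, with 0.27. For citrate the metallothionein genes Mt2 and Mt1, which encode metal-binding proteins, had -6.31 and -5.12 (SE 2.13 and 1.80, adjusted p = 1 for each). For PVP they had -5.27 and -4.14 (SE 2.13 and 1.80). Both comparisons share the control males, in which these genes were low. In the other lists, the genes of smallest p for PVP were Tnfrsf1b (-1.10), Il18r1 (0.28), Tab1 (0.26), Ikbkg (-0.47), Rel (-1.14), Fos (1.74), Pias3 (0.21) and Zfp36 (1.28), each at an adjusted p of 1. For citrate they were Il18 (0.30), Il33 (-0.30), Il1rap (0.39), Il1r2 (-0.41), Irak2 (-0.35), Tab2 (0.30), Jun (-1.85), Nfkb2 (-0.23), Nfkbie (-0.24) and Tnfaip3 (-0.24), each at an adjusted p of 1.

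The 10 genes did not share a single pattern over the 12 livers. After the mean of each sex was subtracted, the highest Pearson r between members was 0.87, for Stat3 and Socs3, then 0.82 for Il6ra and Nfkbia and 0.81 for Il1r1 and Cebpb. The lowest were -0.50 for Socs3 and Nfkbia and -0.44 for Il6ra and Socs3. With the mean of each group and sex subtracted, these values were 0.57, 0.67, 0.72, -0.36 and -0.11 in the same order. Other pairs were then the highest, with 0.97 for Il6st and Il1r1, 0.89 for Il6ra and Il1r1 and 0.86 for Socs3 and Cebpd. The lowest was again that of Socs3 and Nfkbia. Most pairs were above 0 with either subtraction. Deviations within a group and sex mirror each other, so the second set rests on 6 pairs of livers. For Il6st and Il1r1 the PVP females were by far the widest pair, at 12.10 and 13.59 for Il6st and 9.23 and 12.91 for Il1r1. The value of 0.97 therefore rests largely on that pair, which holds PVP replicate 2. All these r values are descriptions of 12 livers that share groups and array quality, and no p is attached to them.

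The genes most like each member were taken from all named genes tested, by Pearson r over the 12 livers after the mean of each sex was subtracted. For Il6ra they were Ell2 (r = 0.976) and St3gal5 (r = 0.965), and for Il6st they were Fas (r = 0.961) and Vwa5a (r = 0.949). For Stat3 they were Slc37a1 (r = 0.97) and Pdia5 (r = 0.968), and for Socs3 Prg4 (r = 0.947) and Vmn1r-ps104 (r = 0.931). Il1r1 was most like Serpina3e-ps (r = 0.961) and Gne (r = 0.956), and Il1rn most like Lpl (r = 0.895) and Fgl2 (r = 0.878). Osmr was most like Tnfrsf11b (r = 0.925) and Tmem176a (r = 0.916), and Cebpb most like B4galt6 (r = 0.946) and Lurap1l (r = 0.944). Cebpd was most like mmu-mir-6367 (r = 0.935) and Hmgn1 (r = 0.917), and Nfkbia most like Cemip2 (r = 0.936) and Mir1b (r = 0.921). Each is the highest of 14147 values from 12 livers, and values this high may arise among so many without a relation.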

How the data were processed

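The deposited values are log2 signals, 1 per probe set and array. The submitters' processing notes name RMA and Transcriptome Analysis Console 4.0.1.36, without saying what each did. The genome build behind the signals is not given in the sources used here. The 72688 probe sets had values from 1.73 to a ceiling of 19.93, which can understate changes of the most abundant transcripts. Gene symbols came from the platform annotation and were updated through RefSeq gene identifiers. Where several probe sets named 1 gene, that of highest mean was used. A gene entered the tests if its mean exceeded 3.93, which is the 40th percentile over probe sets.

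The comparisons were fitted in limma 3.58.1 (R 4.3.3) on all 12 arrays, with group and sex as terms and a prior spread that follows the mean. A second fit of 6 means gave the sex difference in response. Tests were two-sided, with Benjamini-Hochberg adjustment over the 20020 genes and a threshold of 0.05. The number of arrays limits the precision.

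The 10 genes and all lists were chosen with earlier results of these data known. From the pathway lists, the text names a fixed set of genes, those past the threshold and the 2 of smallest p per list and comparison. The alternatives tried were the filter, the covariates, the arrays in the fit, the moderation, the scaling, array quality, the probe set rule, a replicate block and leaving out each array.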

Additional observations from a re-analysis of the deposited data

Results flagged for a closer look

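In 30 combinations of gene and group, 1 liver stood far from the other 3. Il6st in PVP replicate 2, a female, had a log2 signal of 13.59, against 12.13 for the nearest and 12.04 for the lowest of the other PVP-treated livers, so that the gap made up 0.937 of the group's range, above Dixon's 95% critical value for 4 samples. Chance gives such a gap in about 1 of 20 groups. The same liver had the highest Kupffer and neutrophil marker means of the 12, 9.84 and 6.32, and an exon over intron area of 0.821; their part in the Il6st value was not tested.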

How the results depend on the processing

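Over all genes tested, the 8 that passed with PVP were 85 with the stricter filter, 51 with no trend, 37 with array weights, 61 without PVP replicate 3, 12 without control replicate 2, 11 without PVP replicate 2 and 0 to 5 in the other 20, and the 1 with citrate ran from 0 to 6. The share of all genes at an unadjusted p under 0.05, 20.3% with PVP, ran from 9.68% without the 2 PVP arrays of lowest area to 23.8% without PVP replicate 3, and was 10.7% with that area in the fit. With citrate it ran from 5.11% to 9.79%, against 6.56%. In all 26 alternatives 0 of the 10 genes passed an adjusted p of 0.05 in limma in the 3 comparisons of groups; the same held for sex and for the sex difference in response in the 23 alternatives that gave them. Of 777 alternative values for 30 fitted differences, 732 kept their direction and 45 changed it; 18 of the 30 never changed. The replicate numbers do not pair the mice: only 8 of 12 same-numbered pairs share a sex, residual correlations ran from -0.44 to 0.23, and 1 of 12 arrays was most like an array of its own number. With the replicate block 0 genes passed in each comparison of groups, against 1, 8 and 0 of all genes without it. Of the 10 genes at an unadjusted p under 0.05, it left 4 with citrate, 3 with PVP, 0 between coatings, 1 for sex, and 1 for the sex difference in response to each coating. The sex count was 3 with arrays centred on their median, and 3 with a covariate for exon over intron area. The count of PVP minus citrate was 2 with 6 means, and that of the sex difference in response to PVP was 1 with the stricter filter, which leaves Socs3 out, and 5 without the 2 PVP arrays of lowest area. The causes were not tested.

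Leaving out each array gave 2 to 4 genes at an unadjusted p under 0.05 with citrate (2 without control replicate 2 or citrate replicate 4), 2 to 5 with PVP (5 without PVP replicate 3) and 0 to 2 between coatings (2 without PVP replicate 3). For sex it gave 1 to 6, for the sex difference in response to citrate 0 to 1 and to PVP 1 to 4. Signs changed in these fits within -0.11 to 0.13 for Il6st, -0.03 to 0.06 for Socs3 and -0.06 to 0.32 for Il1rn with citrate. With PVP the ranges were -0.28 to 0.27 for Il6st, -0.25 to 0.18 for Il1rn and -0.11 to 0.37 for Nfkbia. For PVP minus citrate they were -0.30 to 0.26 for Il6st, -0.99 to 0.39 for Il1r1, -0.37 to 0.03 for Il1rn, -0.12 to 0.17 for Osmr, -0.17 to 0.04 for Cebpb and -0.37 to 0.03 for Nfkbia.

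Signs also changed with other settings, all in differences far from the threshold. With arrays centred on their median, Il6st was -0.01 and Socs3 -0.01 with citrate, Il6st 0 and Nfkbia -0.02 with PVP, and Osmr -0.04 between coatings. With quantile normalization Socs3 was -0.02 with citrate and Osmr 0 between coatings. With array weights Il6st was -0.08 and Socs3 -0.02 with citrate, and Il1r1 0.15 and Cebpb 0 between coatings. With that area in the fit Socs3 was 0 with citrate, and Il1r1 0.43 and Cebpb 0.12 between coatings. Without the 2 PVP arrays of lowest area Il1r1 was 0.59 and Cebpb 0.05 between coatings. The causes were not tested.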
